A study of Drosophila melanogaster with 6 samples.

Results

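The genes described here are the cytochrome P450 genes of *Drosophila melanogaster* that have a probe set of their own on the array. Gene symbols made of Cyp and a number, updated through the Entrez ID, gave 82 genes, each represented by the probe set with the highest mean over the 6 arrays. Of these, 80 are P450 genes and 2, *Cyp1* and *Cyp40*, are cyclophilins, peptidyl-prolyl isomerases whose symbols follow the same pattern. The cyclophilins were left out of the counts below. The 80 P450 genes stand among 11804 genes with such a probe set, and 2 of them, *Cyp12e1* and *Cyp18a1*, had more than 1. Another 2 probe sets assigned to a P450 gene and a further gene at once were not used for the members.

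The 6 samples were pools of 75 to 100 heads each, labelled female and Canton S, a wild-type laboratory strain, with 3 pools aged 10 days and 3 aged 40 days. The labels give no treatment and no other genotype, so strain, sex and tissue are shared by all groups. Replicate numbers 1, 2 and 3 occur at both ages, and the comparison of 40 with 10 days was paired by that number. Values are log2 expression values made by the authors with GCRMA, and many probe sets share the lowest value of the table.

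Cytochrome P450 enzymes are haem proteins that insert an oxygen atom into lipids, hormones and foreign compounds. In insects they fall into 4 clans. Members of the CYP3 clan and many of the CYP4 clan act on plant toxins, insecticides and fatty acids, mainly in gut, Malpighian tubule and fat body. Some members of the CYP2 clan and of the mitochondrial clan handle the moulting hormone ecdysone, and other mitochondrial members have been tied to insecticide resistance. Enzymes in the endoplasmic reticulum receive electrons from P450 reductase and cytochrome b5, and those in mitochondria from ferredoxins.

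Transcripts known from tissues outside the head were bright on all arrays. Male reproductive tract genes, 23 of 23 above the filter used below, had a median log2 value of 14.04, with *Acp53Ea* at 15.45 ± 0.20 and *Acp98AB* at 15.40 ± 0.10 (mean ± SD, n = 6). Gut enzymes had a median of 11.25 with 15 of 17 genes above the filter, led by *alphaTry*. Egg and ovary genes lay mostly at the floor, with 12 of 14 under the filter, *osk*, *vas* and *bcd* among them. The other members, *exu* and *grk*, had means of 12.79 and 9.43. The yolk protein genes *Yp3*, *Yp1* and *Yp2*, the female fat body list, had means of 8.86, 7.29 and 3.61. The bright male and gut transcripts do not match a female head as labelled, and they were seen in all 6 samples. The Malpighian tubule list (6 of 6 above the filter, led by *Oatp58Dc* and *ZnT35C*) had a median of 8.40, and the oenocyte list (4 of 5, with *FASN3* and *spidey* highest) one of 11.94. Fat body genes had 5 of 7 above the filter, led by *apolpp* and *FASN1*, with *Fbp1* and *Fbp2* near the floor. The photoreceptor list (8 of 8, led by *Arr2*), the glia list (5 of 5, led by *Gs2*) and the neuron list (6 of 8, led by *Gad1*) were above it as well.

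Of the 80 P450 genes, 63 had a mean log2 value of at least 4 and were tested, or 78.8%, beside 68.0% of all 15131 probe sets. Here and below, a P450 gene counts once, by its brightest probe set, while shares of the whole array count probe sets. The latter include dimmer probe sets of a gene and those with no gene, so the units are unlike. The other 17 had means of at most 3.81 and are called near background here. Among these, 7 stayed under 2.1 on all 6 arrays: *Cyp303a1*, which acts in the development of sensory bristles, *Cyp308a1*, *Cyp313a2*, *Cyp313a3*, *Cyp313a5*, *Cyp316a1* and *Cyp4c3*. *Cyp301a1*, a mitochondrial P450 needed for the adult cuticle, was also dim, at 2.48 ± 0.02 (mean ± SD, n = 6). Probes differ in how strongly they respond, so the values rank signals on the array and not amounts of transcript.

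Signals of the bright P450 genes reached the top of the array. *Cyp4g1*, the oenocyte enzyme that makes the cuticular hydrocarbons which waterproof the fly, had the highest mean of all 15131 probe sets, rank 1. Its values at 10 days were 16.05, 16.10 and 16.06, and at 40 days 16.09, 16.06 and 16.07 for numbers 1, 2 and 3. The samples were nearly level and the ages overlapped. The difference was 0.00098 ± 0.032 (log2, 40 minus 10 days, ± SE; limma adjusted p = 0.989), and at this end of the scale a change may be compressed, which was not tested. Its relative *Cyp4g15*, known from the nervous system, had values of 9.09, 8.99 and 8.91 at 10 days and 8.91, 8.79 and 8.71 at 40 days. *Cyp4g15* was lower at 40 days in each pair, by 0.18 to 0.20, and its difference of -0.19 ± 0.06 missed the threshold (adjusted p = 0.157).

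A mean of at least 12 was reached by 10 P450 genes, or 12.5%, beside 7.50% of all probe sets. Of the CYP3 clan, 6 genes were among them. *Cyp6d5* stood at 13.85 ± 0.28, *Cyp6g1*, whose overexpression gives resistance to DDT, at 13.37 ± 0.31, and *Cyp28d1*, tied to nicotine resistance, at 12.78 ± 0.82 (mean ± SD, n = 6). *Cyp9f2*, *Cyp6w1* and *Cyp9b2* had means of 12.44, 12.40 and 12.04. From the CYP4 clan came *Cyp4g1*, *Cyp4e2* at 13.10 ± 0.25 and *Cyp313a1* at 12.73 ± 0.52, and from the mitochondrial clan *Cyp12a4*, whose overexpression gives resistance to lufenuron, at 12.48 ± 0.32. No CYP2 gene reached 12, and the highest of that clan was *Cyp18a1*, which inactivates ecdysone, at 9.16 ± 0.32.

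**Figure D1:**
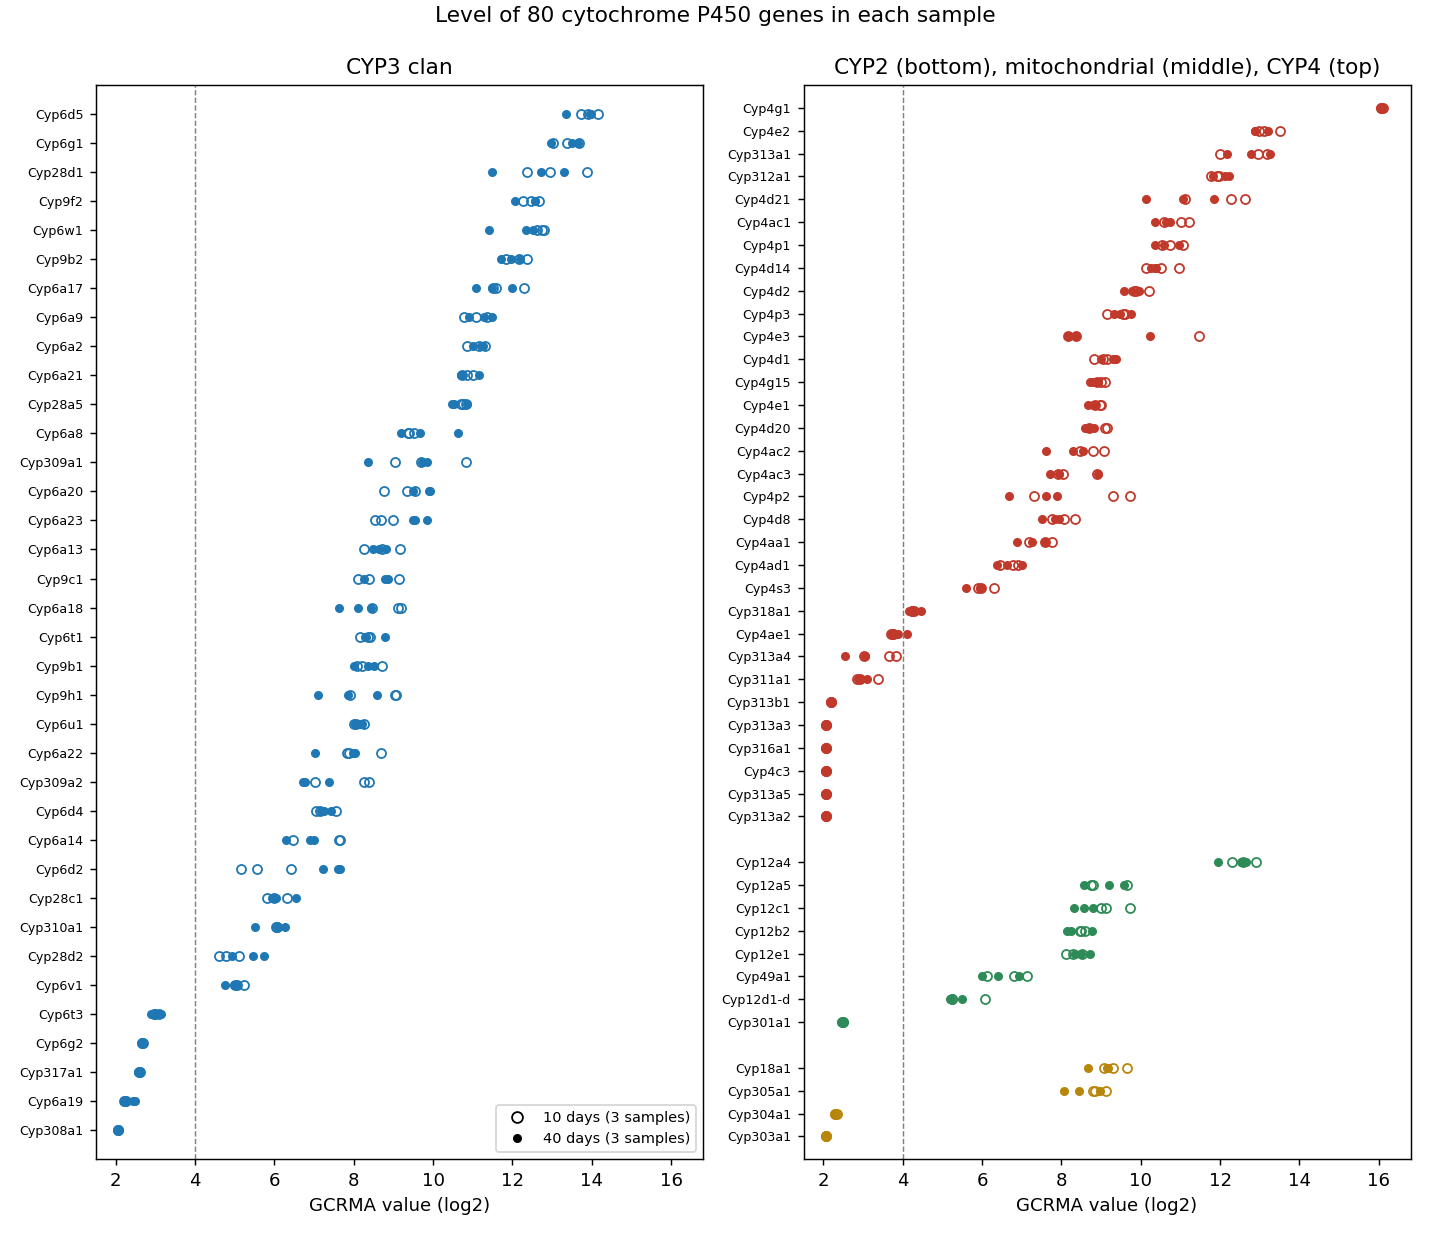
Level of each of the 80 P450 genes in each of the 6 samples, with the deposited log2 value on the horizontal axis and genes ordered by mean within their clan. Open circles are the 10-day samples, filled circles the 40-day samples, and the dashed line is the filter at 4. *Cyp4g1* lies alone at 16.07, and 17 genes lie left of the line.

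By clan, 31 of 36 CYP3 genes, 23 of 32 CYP4 genes, 7 of 8 mitochondrial genes and 2 of 4 CYP2 genes were tested. Their median levels were 8.67, 9.11, 8.45 and 8.94, close to the 9.0 of all tested probe sets. Families were uneven: 5 of 6 *Cyp313* genes lay near background while the other, *Cyp313a1*, was among the brightest, and all 6 *Cyp12* genes, all 5 *Cyp9* genes and all 4 *Cyp28* genes were tested. *Cyp4* and *Cyp6*, the largest families with 22 genes each, had 20 and 19 tested.

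Age was compared next. With age, 4 P450 genes passed the test in the paired comparison, 1 higher and 3 lower at 40 days, by limma with Benjamini-Hochberg adjustment over 10286 probe sets. That is 6.35% of the 63 tested, beside 1.92% of all probe sets in either direction (0.622% higher and 1.3% lower). Without the replicate number as a block, none of the 63 passed: the smallest adjusted p was 0.122, 4 genes had an unadjusted p under 0.05, and 0.34% of all probe sets passed. The paired count was 0 without both samples of number 1 (17 genes at an unadjusted p under 0.05), 2 without those of number 2 and 0 without those of number 3 (29 genes), each over 2 pairs. Of all 10286 tested probe sets, 7 passed without number 1, 118 without number 2 and 32 without number 3, so calls were fewer over the whole array. In bulk RNA such as this, fewer cells of a type and less RNA per cell cannot be told apart.

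*Cyp6d2*, variants of which make flies sensitive to camptothecin, rose most. Its log2 values were 6.43, 5.56 and 5.15 at 10 days and 7.61, 7.65 and 7.23 at 40 days, for numbers 1, 2 and 3. All 3 older samples lay above all 3 younger ones. The rise was 3.44-fold, with a log2 difference of 1.78 ± 0.20 (SE; limma adjusted p = 0.0372 paired and 0.147 without the block). It ran from 1.19 to 2.09 over the pairs. Leaving out 1 number gave 1.63 to 2.08 with adjusted p from 0.0577 to 0.104.

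*Cyp4d21*, also called sxe1 with a part in male courtship, fell in each pair. It read 12.63, 11.11 and 12.27 at 10 days and 11.86, 10.14 and 11.05 at 40 days. The ages overlapped. Both samples of number 2 were the lowest of their age, and each 40-day sample lay under the 10-day sample of its number. The log2 difference was -0.99 ± 0.10 (SE), or 1.98-fold lower (limma adjusted p = 0.0279 paired and 0.492 without the block). Without number 2 it was still called (adjusted p = 0.0447), and without number 1 or 3 it was not (0.122 at most).

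*Cyp6a18*, of the CYP3 clan, had values of 8.46, 9.12 and 9.19 at 10 days and 7.64, 8.11 and 8.44 at 40 days. The ages did not overlap, with the highest 40-day sample just under the lowest 10-day one. It fell by 0.86 ± 0.08 on the log2 scale (SE), or 1.82-fold (limma adjusted p = 0.0253 paired and 0.312 without the block). With 1 number left out the adjusted p lay between 0.0559 and 0.190.

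*Cyp12c1*, a mitochondrial P450 gene, gave 8.99, 9.73 and 9.12 at 10 days and 8.31, 8.81 and 8.58 at 40 days. Here too all older samples were below all younger ones. The log2 difference was -0.72 ± 0.09 (SE), 1.64-fold lower (limma adjusted p = 0.0434 paired and 0.310 without the block). Leaving out 1 number gave adjusted p from 0.0886 to 0.228.

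**Figure D2:**
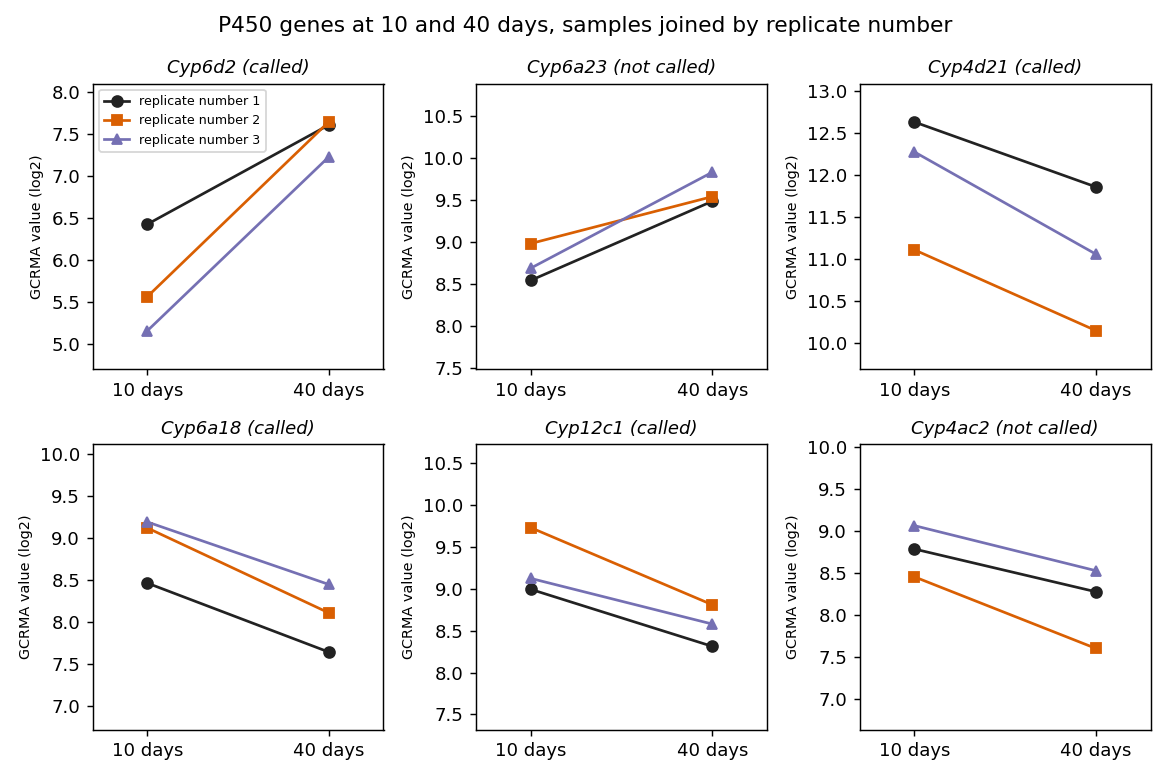
Log2 values of 6 P450 genes at 10 and 40 days, with lines joining samples of the same replicate number and an equal vertical span in each panel. The 4 called genes and the 2 nearest the threshold keep 1 direction in all 3 pairs, and *Cyp4d21* shows samples of number 2 lowest at both ages.

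Just beyond the threshold lay *Cyp6a23* and *Cyp4ac2*. *Cyp6a23* read 8.54, 8.98 and 8.69 at 10 days and 9.49, 9.54 and 9.83 at 40 days, with no overlap. Its difference was 0.88 ± 0.13 (log2 ± SE; limma adjusted p = 0.0514 paired, 0.122 without the block), and without number 2 it was 1.04 with adjusted p = 0.0314. *Cyp4ac2* read 8.79, 8.46 and 9.07 at 10 days and 8.28, 7.60 and 8.53 at 40 days, so the ages overlapped while each pair went down. The difference was -0.63 ± 0.09 (adjusted p = 0.0558 paired, 0.402 without the block). With each array shifted to a common median both genes were called, and over all alternatives the limma adjusted p ran from 0.0257 to 0.253 for *Cyp6a23* and 0.0316 to 0.402 for *Cyp4ac2*.

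More P450 genes had a lower than a higher mean at 40 days, mostly by small amounts. Of the 63 tested, 42 were lower, or 66.7% beside 48.1% of all tested probe sets, and 21 a higher one. After quantile normalization 42 were lower, 20 higher and 1, *Cyp4g1*, at 0. The median log2 difference was -0.16, beside 0.0070 for all tested probe sets. By pair it was -0.19 for number 1, -0.26 for number 2 and -0.0021 for number 3, so it was near 0 in the last pair. Without number 2 the median was -0.07. Differences smaller than 0.3 on the log2 scale were seen for 42 genes. A log2 difference of 0.5 or more was found downward for 11 of the 63 genes and upward for 4. Of all tested probe sets, 3.01% were lower and 1.69% higher by that much, smaller shares than among the P450 genes. A difference of at least 2-fold was found for 1 gene in each direction, *Cyp4p2* and *Cyp6d2*.

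All 3 pairs were lower at 40 days for 21 of the 63 genes, 33.3% beside 23.2% of all tested probe sets. All 3 were higher for 4 genes, *Cyp6d2*, *Cyp6a23*, *Cyp28d2* and *Cyp4d1*, which is 6.35% beside 26.1%. The ages did not overlap for 5 genes lower and 2 higher at 40 days, 7.94% and 3.17% beside 8.42% and 11.4% of all. At an unadjusted p under 0.05, the paired comparison gave 18 lower and 4 higher, 28.6% and 6.35% beside 12.1% and 12.9%. No test was made of the family as a whole.

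**Figure D3:**
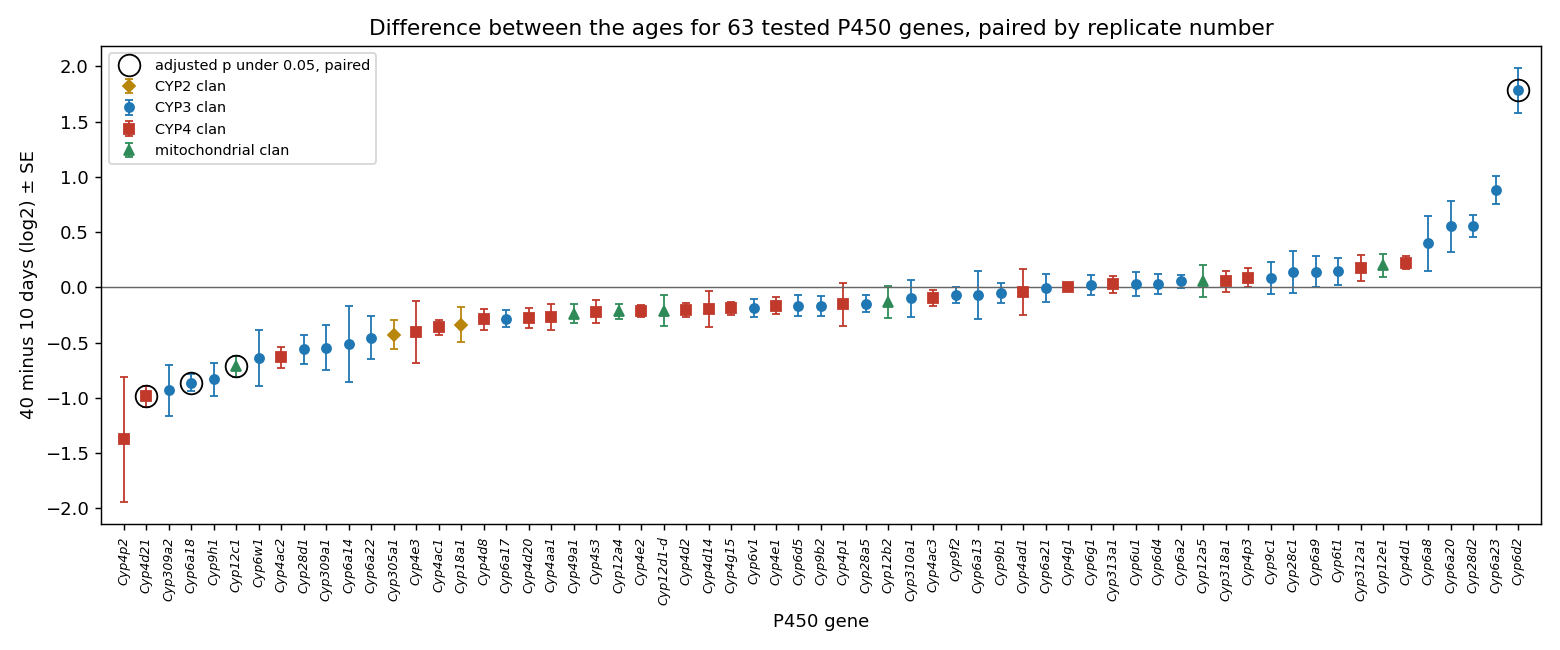
Log2 difference between 40 and 10 days, paired by replicate number, for the 63 tested P450 genes in rising order, with bars of 1 SE and marker shapes for the clans. Rings mark the 4 genes with an adjusted p under 0.05, *Cyp4d21*, *Cyp6a18*, *Cyp12c1* and *Cyp6d2*, and *Cyp4p2* at the left has the widest error.

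Lower means outnumbered higher ones in each clan. In the CYP4 clan 17 of 23 genes were lower, with a median of -0.20 and 9 genes down in all 3 pairs. Of the mitochondrial clan 5 of 7 were lower (median -0.21), and both tested CYP2 genes were, *Cyp18a1* at -0.34 ± 0.16 and *Cyp305a1* at -0.43 ± 0.13 (log2 ± SE; limma adjusted p = 0.260 and 0.145). Of the CYP3 clan 18 of 31 were lower and 13 higher, with a median of -0.07, and its range from -0.93 to 1.78 held the 5 largest rises. The *Cyp6* family was split, 9 lower and 10 higher with a median of 0.02, and the *Cyp4* family was lower in 17 of 20 genes with a median of -0.21. The difference between clans was not tested.

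Among the larger falls that missed the threshold, *Cyp4p2* was the least stable. It read 9.29, 9.73 and 7.30 at 10 days and 6.69, 7.89 and 7.62 at 40 days. Numbers 1 and 2 dropped while number 3 rose, and the 10-day sample of number 3 lay with the older samples. Its difference of -1.38 ± 0.57 had limma adjusted p = 0.221, and ran from -0.76 without number 1 to -2.22 without number 3 (adjusted p = 0.552 and 0.0692). *Cyp309a2* and *Cyp9h1* differed by -0.93 ± 0.23 and -0.83 ± 0.15 (log2 ± SE) and were lower in all 3 pairs (adjusted p = 0.110 and 0.0739). *Cyp6w1*, whose level has been linked to DDT resistance, gave -0.64 ± 0.25 (adjusted p = 0.209). That value leaned on number 3, where it went from 12.79 to 11.40, and was -0.26 without that number. *Cyp28d1* and *Cyp309a1* gave -0.56 ± 0.13 and -0.54 ± 0.20 (adjusted p = 0.103 and 0.193).

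Among rises that missed it, *Cyp28d2* went up in all 3 pairs, by 0.56 ± 0.10 (log2 ± SE; limma adjusted p = 0.0739), from a dim 4.82 ± 0.26 to 5.38 ± 0.41 (mean ± SD, n = 3 each). *Cyp6a20*, known for its part in male aggression, gave 0.55 ± 0.23 (adjusted p = 0.226), with pair differences of 0.58, -0.06 and 1.15. *Cyp6a8*, a gene induced by phenobarbital and caffeine, gave 0.40 ± 0.25 (adjusted p = 0.371). Most of it came from number 1, where it went from 9.52 to 10.62, and it was 0.05 without that number.

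Several other genes of known role missed the threshold too. *Cyp6g1* differed by 0.02 ± 0.09 and *Cyp6a2*, linked to the metabolism of DDT, by 0.05 ± 0.06 (log2 ± SE; limma adjusted p = 0.912 and 0.620). *Cyp12a4* differed by -0.22 ± 0.07 and *Cyp12d1-d* by -0.21 ± 0.14 (adjusted p = 0.164 and 0.412), and both were lower at 40 days in all 3 pairs, as were *Cyp6w1* and *Cyp28d1* above. *Cyp4e3*, known for permethrin tolerance through the tubules, differed by -0.40 ± 0.28 (adjusted p = 0.423) and was lower in 2 of 3 pairs. The probe set shared by *Cyp12d1-d* and its near-identical copy *Cyp12d1-p* gave -0.56 ± 0.14 (adjusted p = 0.116) and was also lower in all 3 pairs, and RNA of the copies cannot be told apart there. *Cyp6d5*, *Cyp9b2*, *Cyp9f2*, *Cyp4e2* and *Cyp313a1*, bright genes, lay between -0.21 and 0.03. With 3 pairs, a difference that missed the threshold is not shown to be absent.

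For both genes with more than 1 probe set, the second one was read as well. The dimmer probe set of *Cyp18a1* gave -0.50 ± 0.21, beside -0.34 ± 0.16 for the brighter one (log2 ± SE). For *Cyp12e1* the brighter gave 0.20 ± 0.10 and the dimmer -0.09 ± 0.07, and limma adjusted p for these 4 lay between 0.223 and 0.451. The cyclophilins *Cyp1* and *Cyp40* differed by -0.14 ± 0.04 and 0.12 ± 0.07 (adjusted p = 0.154 and 0.315).

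Neighbouring P450 genes were compared next. Many P450 genes arose by tandem duplication, and 45 of the 80 lay in 17 groups with at most 1 other protein-coding gene between members, in the RefSeq order of the assembly Release 6 plus ISO1 MT. Of the 10 groups with at least 2 tested genes, 6 were lower at 40 days in every tested gene, 4 held both directions and 0 were all higher. Taken singly, 66.7% of the 63 tested P450 genes were lower, and whether neighbours moved together was not tested. *Cyp28d1* and its neighbour *Cyp28d2* had differences of opposite sign, at -0.56 and 0.56. In the group of *Cyp4ac1*, *Cyp4ac2* and *Cyp4ac3* the differences were -0.36, -0.63 and -0.10, and in that of *Cyp4p2*, *Cyp4p1* and *Cyp4p3* they were -1.38, -0.15 and 0.09.

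The longest group runs from *Cyp6a22* to *Cyp317a1* and holds 9 genes, 7 of them tested. *Cyp6a22* and *Cyp6a17*, a gene of temperature preference, differed by -0.45 ± 0.19 and -0.28 ± 0.08 (log2 ± SE; limma adjusted p = 0.227 and 0.126). *Cyp6a23*, the next gene and a close relative of *Cyp6a17*, gave the 0.88 above, so both paralogues pointed in opposite directions in each of the 3 pairs, and binding of the copies' RNA to each other's probes was not tested. *Cyp6a19* and *Cyp317a1* were near background, at 2.30 and 2.58. *Cyp6a9*, *Cyp6a20*, *Cyp6a21* and *Cyp6a8* gave 0.14, 0.55, -0.0040 and 0.40.

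**Figure D4:**
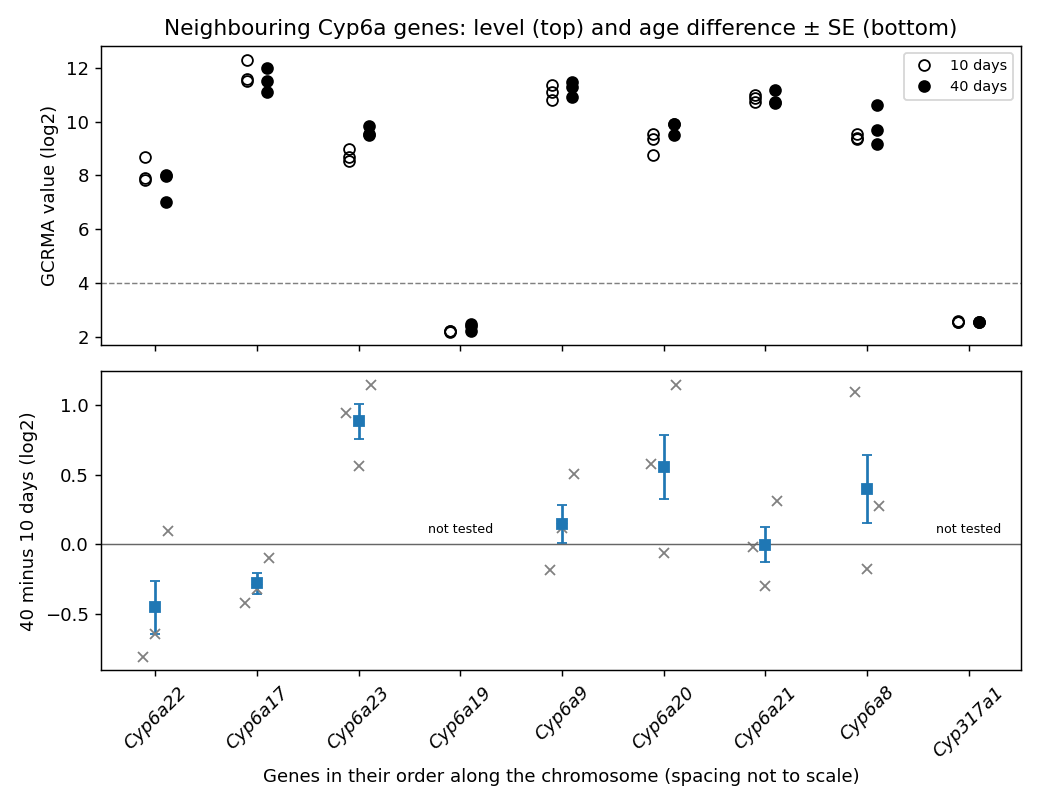
Log2 level in each sample (top; open circles 10 days, filled 40 days, dashed line the filter at 4) and log2 difference between 40 and 10 days (bottom; squares with bars of 1 SE, grey crosses the 3 pairs) for 9 neighbouring P450 genes in chromosome order. *Cyp6a22* and *Cyp6a17* lie below 0 and *Cyp6a23* above it, and 2 genes were not tested.

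P450 genes varied more with the replicate number than most probe sets did. The SD of the 3 number means had a median of 0.240 (log2) over the 63 tested genes, beside 0.106 over all tested probe sets. The number took up a median of 51.3% of a P450 gene's spread over the 6 samples and age 14.4%, beside 49.2% and 22.0% for all. By limma's F test of the replicate numbers, 9 of the 63 genes passed, 14.3% beside 4.72% of all tested probe sets. For *Cyp12e1* the result depended on the probe set. Its dimmer one passed this F test (adjusted p = 0.0344), while the brighter one, counted here, did not (0.304). The labels do not say what a number stands for.

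*Cyp4e3* had the widest gap. It read 8.36, 11.46 and 8.17 at 10 days and 8.15, 10.25 and 8.38 at 40 days. Number 2 was far above the others at both ages, by 3.20 and 1.98 over the mean of numbers 1 and 3 (log2, at 10 and 40 days; limma F test, adjusted p = 0.0337). *Cyp28d1* was also highest in number 2, by 1.23 and 1.20 (adjusted p = 0.0252), as were *Cyp4ac3*, by 0.92 and 1.08 (0.0183), *Cyp6a17*, by 0.75 and 0.69 (0.0302), and *Cyp12a4*, by 0.46 and 0.40 (0.0492). *Cyp313a1* and *Cyp4d21* were lower in number 2, by -1.06 and -0.84 and by -1.35 and -1.31 (adjusted p = 0.0199 and 0.0147). *Cyp49a1* and *Cyp6a18* (adjusted p = 0.0297 and 0.0401) were lowest in number 1 and highest in number 3, with means of 6.06 and 7.04, and of 8.05 and 8.82. *Cyp4ac1*, next to *Cyp4ac3*, was lower in number 2, with a mean of 10.48 against 10.83 and 10.98 in numbers 1 and 3.

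Both samples of number 2 lay above all 4 others for 15 of the 63 genes, 23.8% beside 13.2% of all, and below them for 5, 7.94% beside 12%. The probe set shared by the *Cyp12d1* copies was higher in number 2 by 1.17 (limma F test, adjusted p = 0.0457). Between numbers 1 and 3 alone 1 gene differed, *Cyp9h1*, beside 47 of all 10286 tested probe sets. Between numbers 2 and 3 none passed, beside 7 of all, and between numbers 1 and 2 there were 18, beside 845 of all. Marker lists moved with number 2 as well. The summed level of the gut list was 17.27 to 17.31 in number 2 and 17.63 to 17.96 in the other 4 samples (log2), and that of the male list 18.51 to 18.77 against 18.87 to 18.98. The oenocyte list gave 14.16 to 14.19 against 14.27 to 14.39, the tubule list 11.27 to 11.31 against 11.36 to 11.49 and the glia list 13.76 to 13.89 against 13.91 to 14.09. The photoreceptor list was higher, 15.96 or more against 15.82 to 15.94, as was the female fat body list of yolk protein genes (2 of 3 above the filter), 9.99 to 10.72 against 7.34 to 9.46, led by *Yp3* and *Yp1*. The fat body list, 16.19 to 16.29 against 16.16 to 16.48, and the neuron list, 11.85 to 11.90 against 11.55 to 11.91, overlapped. The part of these tissues in the P450 values was not tested.

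**Figure D5:**
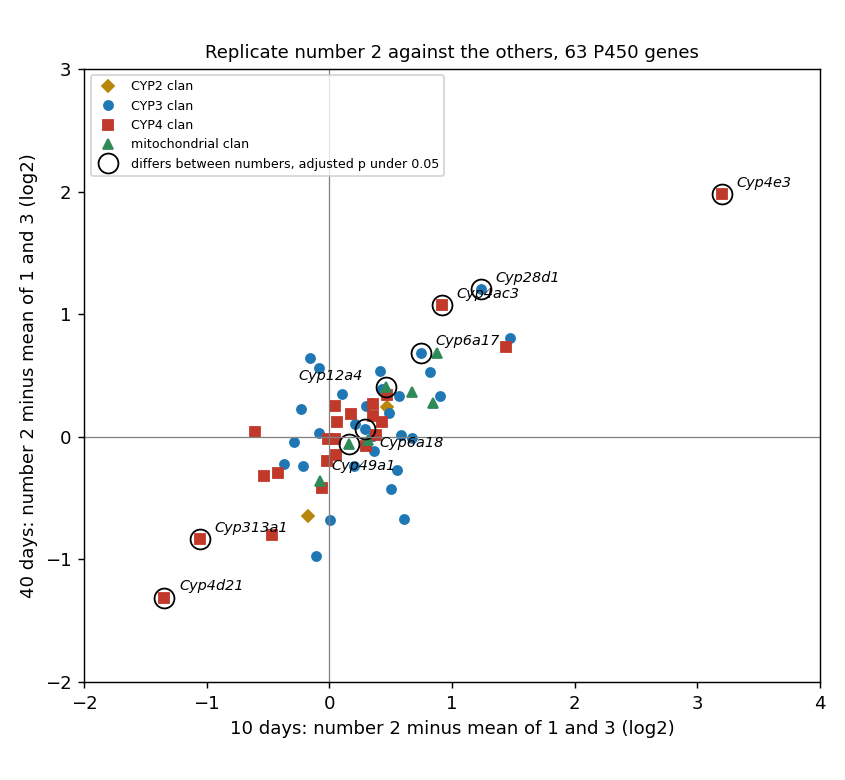
Log2 value of replicate number 2 minus the mean of numbers 1 and 3, at 10 days (horizontal) and 40 days (vertical), for the 63 tested P450 genes. Rings mark the 9 genes that differ between the numbers, and *Cyp4e3* lies far to the upper right at 3.20 and 1.98, *Cyp4d21* at the lower left at -1.35 and -1.31.

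Between the ages, the summed levels overlapped for the gut (17.31 to 17.77 at 10 days, 17.27 to 17.96 at 40 days), tubule (11.27 to 11.47 and 11.31 to 11.49), fat body (16.23 to 16.48 and 16.16 to 16.38), oenocyte (14.19 to 14.27 and 14.16 to 14.39), male (18.51 to 18.98 and 18.77 to 18.92), female fat body, photoreceptor, neuron and glia lists. Those of the ovary list did not, at 12.76 to 12.88 and 12.96 to 13.13, carried by *exu* and *grk*, the only members above the filter. In the paired test 4 markers passed, from the fat body, gut and male lists with 5, 15 and 23 tested genes. None passed in the other lists, and 1.92% of all tested probe sets did. *Lsp2* of the fat body list, *Jon74E* of the gut list and *dj* of the male list fell, and *Jon99Fi* of the gut list rose (log2 differences of -2.19, -0.51, -1.18 and 1.65). Without the block *dj* passed (limma adjusted p = 0.00347) and the other 3 did not (0.492 to 0.663). In the male list 18 of 23 genes had a higher mean at 40 days, with a median difference of 0.11, and *dj* was the only one called. Their part in the P450 differences was not tested.

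Of the list of electron donors, haem genes, regulators and ecdysone P450 enzymes, 1 of 19 tested genes passed, beside 1.92% of all tested probe sets. The list held 31 genes, 26 with a probe set of their own. Of 6 electron donors listed, the P450 reductase gene *Cpr* and *dare* had no such probe set, so they could not be examined. The other 4 were tested and all had a negative difference. Of these, *Cyt-b5* at -0.0035 and the ferredoxin genes *Fdx1* and *Fdx2* at -0.02 and -0.08 lay close to 0. The other was *Cyt-b5-r*, which encodes a cytochrome b5-related protein resembling fatty acid desaturases rather than a known donor. It read 13.52, 14.10 and 13.98 at 10 days and 12.87, 13.59 and 13.39 at 40 days, lower in each pair. It fell by 0.58 ± 0.05 on the log2 scale (SE; limma adjusted p = 0.0191 paired and 0.373 without the block), and no gene of the list passed without number 1 or without number 3. Of 6 haem synthesis genes none passed, and *FeCH*, the ferrochelatase that places iron in haem, gave -0.23 ± 0.06 (adjusted p = 0.112).

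Of 11 regulators with a probe set, 8 were tested and none passed. The xenobiotic receptor gene *Hr96* gave 0.14 ± 0.06 (log2 ± SE; limma adjusted p = 0.228), and *cnc*, whose product induces detoxification genes, -0.03 ± 0.05. Ecdysone synthesis uses P450 enzymes with symbols outside the Cyp pattern. Of these *dib*, *sad*, *spo* and *spok* lay near the floor in all samples, and *shd*, which makes the active hormone, was dim at 4.66 ± 0.12 and 4.53 ± 0.11 (mean ± SD, n = 3 each; adjusted p = 0.320).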

How the data were processed

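The deposited values are log2 expression values per probe set, made by the authors with GCRMA (background correction, normalization between arrays and summary), per the submitters' processing notes. The sources used here name neither its version nor a genome build. Of 15131 probe sets, 13333 had 1 gene, 390 several and 1408 none. Array medians lay between 7.51 and 7.53, and the number of arrays limits the precision.

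Probe sets with a mean of at least 4, 10286 in all, were fitted with limma 3.58.1 in R 4.3.3 (age plus replicate number, eBayes with trend, two-sided), with Benjamini-Hochberg adjustment over all of them and a threshold of 0.05. The fit was tested on simulated data. SE are those of the fit. Whether p-values measure more than the spread between these pools depends on how the pools were made, and the labels call them independent biological replicates.

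Replicate numbers were read from the sample titles, and no label states what a shared number means. The comparison was paired by number because the rule that chose the genes asks for it. After the age means were removed, samples of the same number correlated at 0.707, 0.772 and 0.353, each over a threshold of 0.1. The choice to pair did not depend on these values.

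The genes, lists and comparisons were chosen with earlier results of these data known. Named were the called genes, the 10 brightest, the 5 largest rises and 10 largest falls, the brightest of each clan and genes of known role. Also named were, of the partner list, called genes and the smallest p of each role, and of each marker list up to 2 with the highest mean. Other names were chosen after their values were seen. Marker sums are log2 of summed linear values. Alternatives were no block, other filters, normalizations, floors and variance models, means of probe sets, and each replicate number left out. Tables and plots used Python 3.11.15, pandas 2.3.3 and matplotlib 3.10.9.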

Additional observations from a re-analysis of the deposited data

How the results depend on the processing

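The paired count of 4 P450 genes (1 higher, 3 lower) was 0 with no replicate block and 0 without a filter on dim probe sets, where no probe set of 15131 passed limma (17 P450 genes had an unadjusted p under 0.05, and the 4 genes adjusted p of 0.202 to 0.205). With a robust variance model it was 7 (2 higher, 5 lower), beside 395 of 10286 probe sets in place of 198. Higher calls were 2 with a filter at 6, after median centring and after quantile normalization. In these fits 294 of 9178, 262 of 10286 and 248 of 10286 probe sets passed in either direction. Leaving out 1 replicate number gave 0 to 2 calls, 0 to 1 higher and 0 to 1 lower, beside 7 to 118 of 10286 probe sets. The partner count of 1 was 0 with no replicate block and 0 without a filter, and 0 to 1 with a number left out. The 9 genes that differ between replicate numbers became 0 without a filter, where 1 of 15131 probe sets passed. With a number left out they were 0 to 18, beside 7 to 845 of 10286 probe sets, an alternative chosen after seeing the data. Counts in 1 direction, then over 2 pairs, were 24 to 38 lower and 8 to 10 higher. Agreement of 2 pairs is easier to reach than agreement of 3. No share of all tested probe sets stands beside these counts, so they cannot be set against the whole array. Over the means of all probe sets the CYP2 median level was 7.92. Small differences changed sign: with array weights *Cyp4g1* gave -0.0073 and *Cyp6g1* -0.031. With a number left out the ranges were -0.015 to 0.022 for *Cyp4g1*, -0.11 to 0.12 for *Cyp6g1*, -0.045 to 0.13 for *Cyp313a1*, -0.16 to 0.0024 for *Cyp9f2* and -0.71 to 0.0043 for *Cyp4e3*. The 4 called genes kept their direction under all 13 alternatives each. Since all 3 pairs of each gene had 1 sign, leaving out a number could not have reversed it. Under the 13 alternatives *Cyp12c1* stayed called in 7, *Cyp4d21* in 9, *Cyp6a18* in 8 and *Cyp6d2* in 8. The median difference stayed below 0, between -0.18 and -0.07. The cause of these shifts was not tested. For 17 genes signal near background limits what can be seen.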
